A study of Mus musculus with 6 samples.

Results

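Expression of p53 pathway and apoptosis genes was examined in undifferentiated mouse embryonic stem (ES) cells that carry an inducible human GTF2IRD2 coding sequence, a transcription factor gene of the TFII-I family linked to Williams-Beuren syndrome. The genes were the 39 of a list made of p53 with its inhibitors and targets, the Bcl2 family, caspases with their activators and the IAP (inhibitor of apoptosis) proteins, picked by name. Earlier results of these data were known when the list was chosen. A gene was taken as measured when the probe-to-gene table of the array gave it at least 1 probe set with a single symbol, and where it had several, the brightest on average over all arrays stood for it. By this rule 37 of the 39 genes were measured, out of 18193 genes on the array. Trp53, which encodes p53 itself, and Bax are not analysed here.

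The induced group comprised 3 cultures of clones A3, A4 and A5, sampled 24 hours after tetracycline was removed, and the uninduced group 3 cultures of the same clones kept in tetracycline (0 hours), with 1 Affymetrix array per culture. All 6 cultures derive from the EBRTcH3 ES line and carry the transgene, fused to a FLAG epitope, at the Rosa26 locus under a promoter that tetracycline represses, and they grew with leukemia inhibitory factor in serum. Each replicate is thus 1 culture of 1 clone, and a parental line lacking the transgene is not among them, so that removal of tetracycline and expression of the human gene cannot be told apart. Values are log2 RMA signals, on which a difference of 1 is a 2-fold difference, and the p-values rest on the spread among these 6 cultures, which may be technical in part.

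The 6 arrays were close in scale, with medians of 5.03 to 5.06 and correlations of 0.996 to 0.998. All 10 ES cell markers had a mean of at least 8, and their mean lay between 11.89 and 11.99 in every array. The 10 fibroblast and feeder markers averaged 4.51 to 4.60 (summed linear signal 361 to 376 in induced and 356 to 385 in uninduced arrays), with 6 of them under 5. The 8 primitive endoderm markers averaged 4.52 to 4.80 (summed linear signal 191 to 243 in induced and 212 to 251 in uninduced arrays), with 6 under 5.

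p53 is a transcription factor that is stabilised when DNA is damaged or growth signals go wrong, and it switches on genes that halt the cell cycle, repair DNA or start apoptosis. In the mitochondrial route of apoptosis, BH3-only proteins either block the anti-apoptotic members of the Bcl2 family or activate the effectors Bak1 and Bax, which open the outer membrane so that cytochrome c leaves, binds Apaf1 and activates caspases. Mouse ES cells are known to die readily by this route after DNA damage.

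To place the p53 targets in the genome, the windows from 250 bases before to 50 bases after each annotated start site were read from RefSeq (GRCm38.p6) and searched for a pair of p53 consensus decamers, the binding element of a p53 tetramer. A pair had at most 3 mismatches over 20 bases, intact C and G core positions in each decamer and at most 1 base between them. The consensus reads the same on both strands, so 1 search covers both, and pairs may overlap other motifs. Windows were found for 32 of the 37 measured genes, 47 windows in all, and not for Trp53inp1, Zmat3, Perp, Pmaip1 and Bik. Pairs lay in 6 of these 32 genes (18.8%), against 3.27% of all 27025 genes with a window and 2.82% of all 32851 windows. The windows with the closest pairs, those of Cdkn1a and Ccng1 with 1 mismatch each (0.110% of all windows come this close), are shown because both are textbook p53 targets, and those of Bcl2l11 because it differed between clones and holds no pair in either window. Each is given 5′ to 3′ on the strand of the gene, with the pair in capitals.
Cdkn1a, chr17:29090729-29091028, plus strand: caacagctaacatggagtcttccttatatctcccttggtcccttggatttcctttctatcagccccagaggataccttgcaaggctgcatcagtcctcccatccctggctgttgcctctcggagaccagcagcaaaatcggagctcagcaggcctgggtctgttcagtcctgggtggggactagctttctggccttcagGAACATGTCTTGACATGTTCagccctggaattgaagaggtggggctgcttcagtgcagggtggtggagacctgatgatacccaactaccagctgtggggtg
Ccng1, chr11:40755237-40755536, minus strand: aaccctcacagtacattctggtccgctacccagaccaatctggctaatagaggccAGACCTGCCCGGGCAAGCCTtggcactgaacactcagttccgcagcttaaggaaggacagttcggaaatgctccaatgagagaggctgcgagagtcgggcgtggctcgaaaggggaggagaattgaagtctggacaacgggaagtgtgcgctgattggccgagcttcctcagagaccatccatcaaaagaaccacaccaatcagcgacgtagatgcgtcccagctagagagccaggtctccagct
Bcl2l11, chr2:128125788-128126087, plus strand: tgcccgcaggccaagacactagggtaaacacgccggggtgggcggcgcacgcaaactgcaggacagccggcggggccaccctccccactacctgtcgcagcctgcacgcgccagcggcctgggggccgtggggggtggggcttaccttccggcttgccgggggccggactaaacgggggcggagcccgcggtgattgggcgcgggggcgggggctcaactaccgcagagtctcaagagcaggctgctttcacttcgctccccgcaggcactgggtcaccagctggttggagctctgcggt
Bcl2l11, chr2:128127325-128127624, plus strand: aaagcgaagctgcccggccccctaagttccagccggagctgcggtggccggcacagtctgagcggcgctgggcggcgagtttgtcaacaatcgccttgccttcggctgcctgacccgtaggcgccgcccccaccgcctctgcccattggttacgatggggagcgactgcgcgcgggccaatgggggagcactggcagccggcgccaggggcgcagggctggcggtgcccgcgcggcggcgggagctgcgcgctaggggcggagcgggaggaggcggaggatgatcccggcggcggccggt
The pair of Cdkn1a starts 51 bases and that of Ccng1 195 bases upstream of the start site of its window. Cdkn1a has another window, at chr17:29093519-29093818, that holds no pair, and Bbc3 and Sesn1 also have windows without a pair. The other 4 genes with a pair, each with 3 mismatches, are shown by the pair in capitals and 10 bases on either side, to set their elements beside the closest ones.
Aen, pair at chr7:78895937-78895956, plus strand: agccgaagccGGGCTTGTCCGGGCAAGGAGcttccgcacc
Bbc3, pair at chr7:16309486-16309505, plus strand: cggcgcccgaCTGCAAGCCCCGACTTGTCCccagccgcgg
Sesn1, pair at chr10:41887266-41887285, plus strand: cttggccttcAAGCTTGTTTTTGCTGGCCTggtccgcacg
Tigar, pair at chr6:127109746-127109765, minus strand: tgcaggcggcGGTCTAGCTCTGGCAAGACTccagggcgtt
A match describes the letters of a window and is not a measured binding site, and the absence of one says only that these letters are not in the window.

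The first comparison asked which of these genes respond to induction of GTF2IRD2. On induction 0 of the 37 genes passed the threshold (adjusted p under 0.05 over all 45037 probe sets, limma), and 0 of their 98 probe sets. Of all 18193 genes 0% passed. At an unadjusted p under 0.05 the count was 0 of 37 genes, against 2.36% of all genes (430), and with the clone as a block it was 1 of 37, against 4.70% (855). Of the 98 probe sets of the 37 genes, 2 had an unadjusted p under 0.05 without the block, against 3.12% of all probe sets (1404). The median difference over the 37 genes was 0.02, against -0.00278 over all genes, with a range of -0.20 to 0.10. The 95% interval had a median width of 0.21 on either side, and for all 37 genes it excluded a 2-fold difference in either direction. For 35 of them it excluded a 1.5-fold difference, the exceptions being Perp (-0.64 to 0.43) and Pmaip1 (-0.65 to 0.66), which were also the genes that differed most between clones. These intervals are from the fit without the clone, so differences between clones widen them. With the clone as a block the SE was 0.10 in place of 0.23 for Perp and 0.07 in place of 0.29 for Pmaip1.

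Differences had 1 sign in all 3 clones for 10 genes. Sesn1, Mcl1 and Cycs were above 0 in every clone (8.11%, against 12.9% of all genes), and Mdm2, Aen, Bak1, Bok, Bcl2l1, Bcl2l2 and Hrk below 0 (18.9%, against 13.3%). The sign of the mean difference was shared by 4 of 4 probe sets of Sesn1 and of Bcl2l2, 2 of 2 of Hrk, 3 of 4 of Bcl2l1 and 2 of 3 of Mdm2. It was shared by 2 of 4 of Cycs (-0.24 to 0.08), 2 of 6 of Mcl1, 1 of 2 of Bak1 and 1 of 4 of Aen, so for these genes it depended on the probe set. The next brightest probe set of Sesn1 was below 0 in A4 (-0.02), so its 1 sign in all 3 clones depended on the probe set too. The 3 induced and 3 uninduced arrays overlapped for all 37 genes, while 3.16% of all genes had every induced array above and 4.07% every induced array below the uninduced ones.

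**Figure D1:**
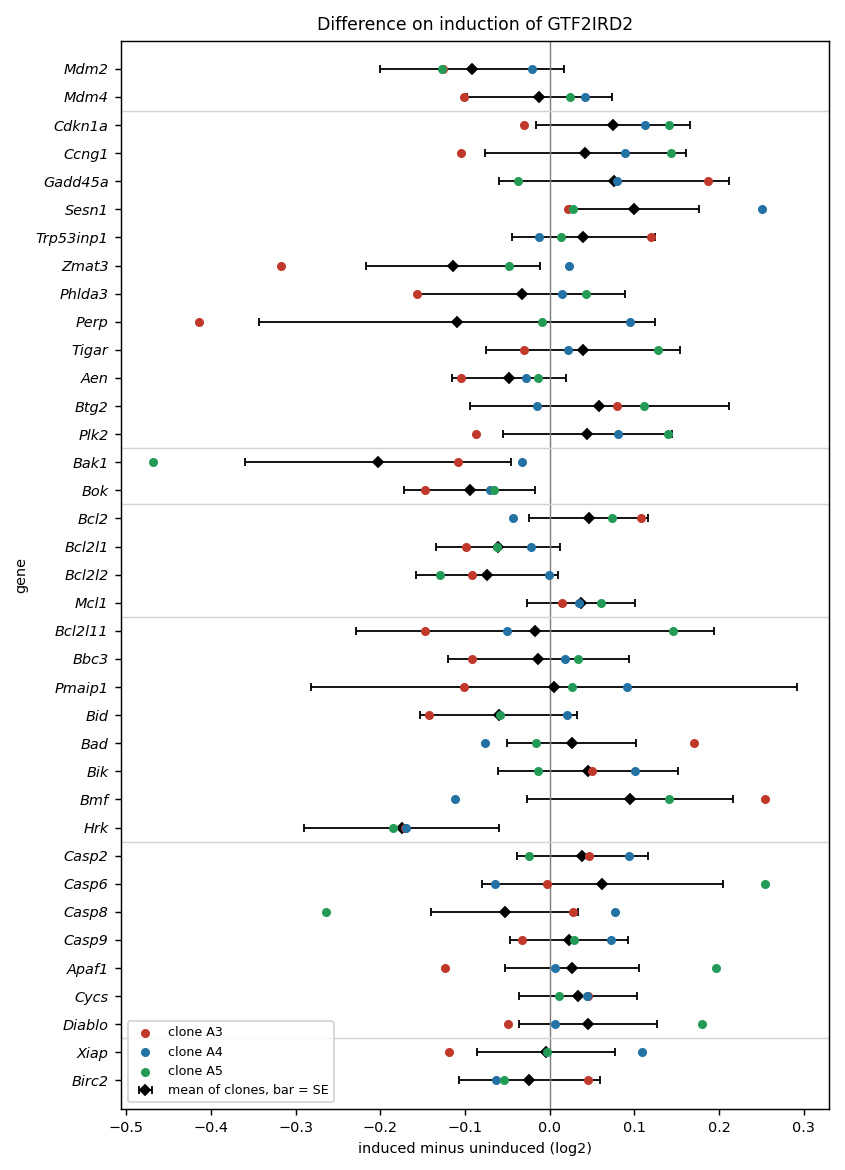
Differences on induction, induced minus uninduced (x axis, log2), of the 37 genes (y axis, grouped by role), as a point for each clone and a diamond for the mean with its SE from the fit without the clone. The means lie between -0.20 for Bak1 and 0.10 for Sesn1, and Perp scatters from -0.41 in A3 to 0.09 in A4.

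Of the inhibitors of p53, Mdm2, the ubiquitin ligase that marks p53 for degradation and is itself a p53 target, had 9.16, 9.51 and 9.36 in induced cultures of A3, A4 and A5, against 9.28, 9.53 and 9.49 in the uninduced ones. The groups overlapped, at a difference of -0.09 ± 0.11 (SE, n = 3 each), and its 3 probe sets spanned -0.09 to 0.02. Mdm4, the partner that masks the activation domain of p53, differed by -0.01 ± 0.09.

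Cdkn1a encodes p21, the cyclin-dependent kinase inhibitor through which p53 halts cells in G1. It had 8.71, 8.99 and 8.85 in induced A3, A4 and A5, against 8.74, 8.88 and 8.71 in uninduced cultures. Values were slightly higher in A4 and A5 and slightly lower in A3, a difference of 0.07 ± 0.09. Sesn1, a sestrin that restrains the growth kinase mTORC1, had the highest mean difference of the 37 genes, with 7.65, 7.84 and 7.69 in induced cultures against 7.63, 7.59 and 7.66 in uninduced cultures (0.10 ± 0.08). In this probe set the difference came mainly from A4 (0.25, against 0.02 in A3 and 0.03 in A5). The mean difference had the same sign in all 4 probe sets of Sesn1, at 0.07 to 0.19, but the clone pattern was not shared. The next brightest gave 0.38 in A3, -0.02 in A4 and 0.13 in A5. Zmat3, an RNA-binding zinc finger protein, had 9.43, 9.76 and 9.79 in induced cultures against 9.75, 9.74 and 9.83 in uninduced cultures, where the induced A3 culture alone was low (-0.11 ± 0.10). Perp, a membrane protein of desmosomes that p53 activates in apoptosis, had 8.11, 9.12 and 8.70 in induced cultures and 8.52, 9.02 and 8.71 in uninduced cultures (-0.11 ± 0.23). Its induced A3 array was the lowest of all, and without it the sign turned (0.16).

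The remaining p53 targets differed by -0.05 to 0.08. They were the cyclin gene Ccng1 (0.04), the stress genes Gadd45a (0.08) and Trp53inp1 (0.04), the Akt repressor Phlda3 (-0.03), the phosphatase Tigar (0.04), the nuclease Aen (-0.05), the antiproliferative Btg2 (0.06) and the kinase Plk2 (0.04). Over its 3 probe sets Ccng1 spanned -0.08 to 0.04, with 1 of the 3 above 0. The 6 genes with a p53 pair in a window, among them Cdkn1a and Ccng1, lay between -0.05 and 0.10.

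In the Bcl2 family the effectors had the lowest median difference by role (-0.15). Bak1, which opens the outer mitochondrial membrane, had 7.46, 7.68 and 7.73 in induced cultures and 7.56, 7.71 and 8.20 in uninduced cultures (-0.20 ± 0.16). The uninduced A5 array was high, so that A5 gave -0.47, against -0.11 in A3 and -0.03 in A4, and its other probe set differed by 0.04. Without the uninduced A5 array the difference was -0.02. Its relative Bok differed by -0.09 ± 0.08.

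Hrk, a BH3-only gene named for its Bcl2-blocking product harakiri, had the most even difference, with 6.16, 6.41 and 6.48 in induced cultures against 6.33, 6.58 and 6.66 in uninduced cultures. The induced culture was lower by 0.17 to 0.19 in each clone, a difference of -0.17 ± 0.11. With the clone as a block it was the gene with an unadjusted p under 0.05 (0.0308 in limma, adjusted p = 0.843), and its other probe set differed by -0.11. The other BH3-only genes lay between -0.06 for Bid, which Casp8 cleaves to reach mitochondria, and 0.09 for Bmf. The anti-apoptotic genes lay between -0.07 for Bcl2l2 and 0.05 for Bcl2, with Bcl2l1 at -0.06 and Mcl1, a short-lived protein that holds Bak1 in check, at 0.04.

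Caspases and their activators had small differences of both signs. Casp2, Casp6 and Casp9 differed by 0.02 to 0.06, Apaf1, the scaffold of the apoptosome, by 0.03, Cycs, which encodes cytochrome c, by 0.03, and Diablo, which relieves inhibition by IAP proteins, by 0.05. Over all of its probe sets, Cycs spanned -0.24 to 0.08 and Casp6 -0.20 to 0.06. Casp8, the initiator at death receptors, had a mean of 3.71, near the lower quartile of all probe sets (3.61 to 3.64), and differed by -0.05. The IAP genes Xiap, an inhibitor of caspases, and Birc2, a ubiquitin ligase, were at -0.00421 and -0.02.

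The second comparison asked how far the clones differ in these genes, using the induced and uninduced array of each clone as its replicates. In limma's F-test of the clone term 3 of the 37 genes passed (8.11%), against 3.09% of all 18193 genes, 4.23% of the 11927 genes with a mean of at least 5, a level that 36 of the 37 genes reached, and 2.18% of all probe sets (980 of 45037). The 3 genes were Pmaip1, Bcl2l11 and Perp, all of them lower in clone A3. Between pairs of clones, 4 genes were lower in A3 than in A4 (2.08% of all genes) and 2 lower in A3 than in A5 (1.12%), while 0 were higher in A3 (1.98% of all genes against A4 and 1.25% against A5). Between A4 and A5 0 of the 37 genes differed, and few genes did so at all (0.0550% higher and 0.0165% lower in A4). Without the induced A3 array 1 gene passed the F-test, Pmaip1, and without both A3 arrays 0 passed. With the variance prior following intensity 10 passed, among 2641 of all probe sets.

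Pmaip1 encodes Noxa, a BH3-only protein that binds and neutralises Mcl1, and is a direct p53 target. It had 6.19 and 6.29 in the induced and uninduced cultures of A3, against 7.10 and 7.01 in those of A4 and 7.15 and 7.12 in those of A5. Both A3 arrays lay clearly below the other 4, whose values were close together. The difference was -0.81 ± 0.09 (SE) from A4 (adjusted p = 0.00420 in limma) and -0.89 ± 0.09 from A5 (adjusted p = 0.00385), a level 1.81-fold lower in A3 than in the mean of the others (F-test adjusted p = 0.00433). It passed without each single array in turn (adjusted p up to 0.0479). Its difference on induction was -0.10 (A3), 0.09 (A4) and 0.03 (A5), much less than that between clones.

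Bcl2l11 encodes Bim, a BH3-only protein that binds all anti-apoptotic relatives and is better known as a target of FoxO factors than of p53. It had 8.74 and 8.89 in induced and uninduced A3, against 9.33 and 9.38 in A4 and 9.54 and 9.39 in A5. The A3 arrays were again the lowest, with a difference of -0.55 ± 0.10 from A4 (adjusted p = 0.0254 in limma) and -0.65 ± 0.10 from A5 (adjusted p = 0.0181) and a level 1.52-fold lower than the mean of the others. All 5 of its probe sets had both A3 arrays below the other 4, and 3 of them passed the F-test (adjusted p = 0.0236 for the one used). The call was lost without the induced A3 array (adjusted p = 0.219, with A3 minus the mean of the others at -0.50) and without the uninduced A3 array (0.0647, at -0.70).

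Perp had 8.11 and 8.52 in induced and uninduced A3, against 9.12 and 9.02 in A4 and 8.70 and 8.71 in A5. A3 was lowest, A5 between and A4 highest, with no overlap of clones. The difference was -0.75 ± 0.12 from A4 (adjusted p = 0.0200 in limma) and -0.39 ± 0.12 from A5 (0.222). Its F-test (adjusted p = 0.0475) was close to the threshold and was lost without the induced A3 array (0.158), the uninduced A4 array (0.0554), the induced A4 array (0.145), both A4 arrays (0.177) or the induced A5 array (0.0531).

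Btg2, an antiproliferative p53 target, was the other gene lower in A3 than in A4, with 7.47 and 7.39 in induced and uninduced A3, 7.91 and 7.92 in A4 and 7.68 and 7.57 in A5 (A3 minus A4 -0.49 ± 0.09, adjusted p = 0.0241 in limma). It missed the F-test over all 3 clones (adjusted p = 0.0565).

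**Figure D2:**
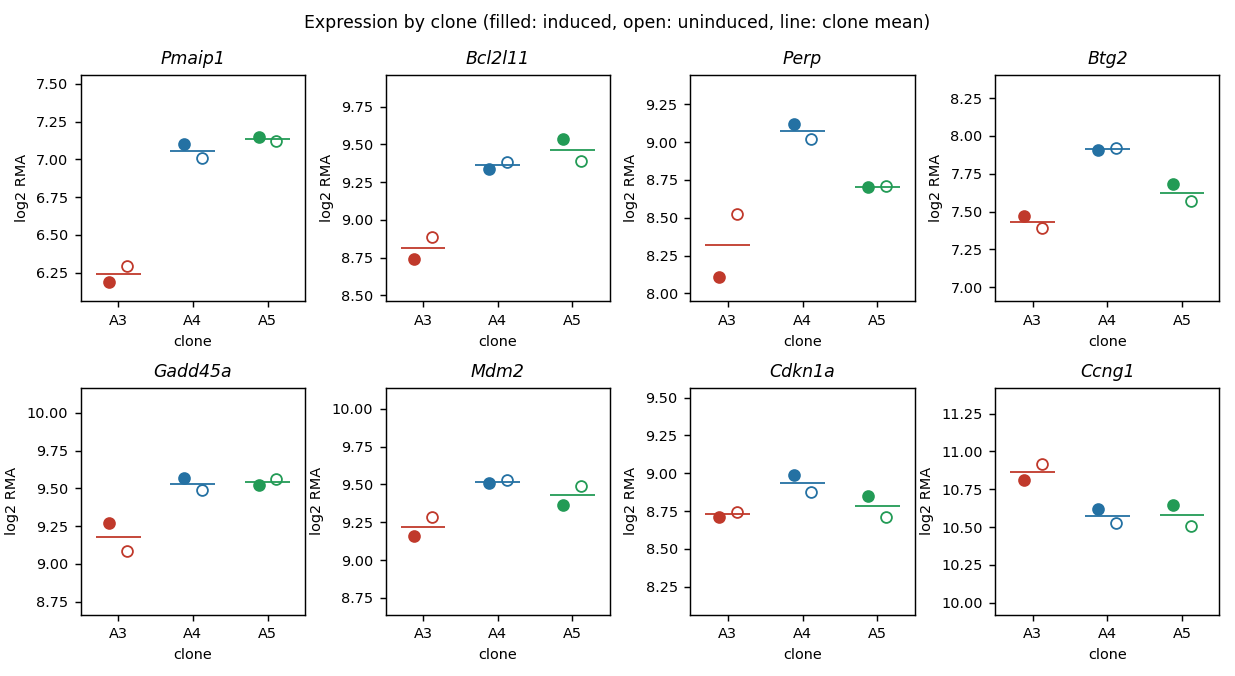
Expression (log2 RMA, y axes of equal span) of 8 genes in each clone (x axis), with filled points for induced cultures, open points for uninduced cultures and lines for clone means. Pmaip1 and Bcl2l11 are low in A3 alone, Perp and Btg2 step up from A3 to A5 to A4, and Ccng1 has its highest values in A3.

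Counted without a test, more of the genes stood apart in A3. Both A3 arrays lay below the other 4 for 15 of the 37 genes (40.5%), against 16.6% of all genes and 19.5% of those with a mean of at least 5, and above them for 4 (10.8%, against 14% and 18.1%). The 15 were Mdm2, Mdm4, Gadd45a, Phlda3, Perp, Btg2, Bak1, Bcl2l2, Bcl2l11, Bbc3, Pmaip1, Bik, Hrk, Casp2 and Cycs. The 4 were Ccng1, Bmf, Diablo and Birc2. Both A4 arrays lay above the other 4 for 13 genes (35.1%, against 11.7% of all genes) and below them for 1 (2.70%, against 11.2%). The median of A3 minus the other clones was -0.13 over the 37 genes and -0.01 over all genes.

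By role, the p53 targets of the cell cycle and stress leaned towards high values in A4. Both A4 arrays were highest for 7 of the 12 (58.3%, against 11.7% of all genes), namely Cdkn1a, Trp53inp1, Phlda3, Perp, Tigar, Btg2 and Plk2. For Tigar this depended on the probe set, since another had both A4 arrays lowest (clone means 7.27 in A3, 7.09 in A4 and 7.41 in A5). Both A3 arrays were lowest for 4 of the 12 (33.3%, against 16.6% of all genes), namely Gadd45a, Phlda3, Perp and Btg2. Gadd45a had clone means of 9.18 (A3), 9.53 (A4) and 9.54 (A5) (F-test adjusted p = 0.127 in limma). In the same order of clones Phlda3 had 8.52, 8.87 and 8.77 (0.186). Of the genes with the closest p53 pairs, Cdkn1a had 8.73, 8.94 and 8.78 (0.449), with A3 next to A5, while Ccng1 had 10.86, 10.57 and 10.58 (0.237), with A3 highest. The next brightest probe set of Ccng1 had 10.43, 10.45 and 10.31, where A3 was not highest. Its dimmest had A3 highest (9.87, 9.63 and 9.60).

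Mdm2 had clone means of 9.22 (A3), 9.52 (A4) and 9.43 (A5), with A3 below both others in each array (F-test adjusted p = 0.227 in limma). Among the BH3-only genes 5 of 8 had both A3 arrays lowest (62.5%, against 16.6% of all genes). In clones A3, A4 and A5, Bbc3, which encodes the p53 target Puma, had means of 8.02, 8.30 and 8.25 (0.244), and Hrk 6.24, 6.49 and 6.57 (0.164). Bmf, which answers to loss of attachment, went the other way at 7.74, 7.48 and 7.45 (0.320). The anti-apoptotic genes differed little, with a median range of clone means of 0.10, against 0.29 for the BH3-only genes and 0.15 for all genes. Mcl1 had 12.38, 12.35 and 12.36.

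**Figure D3:**
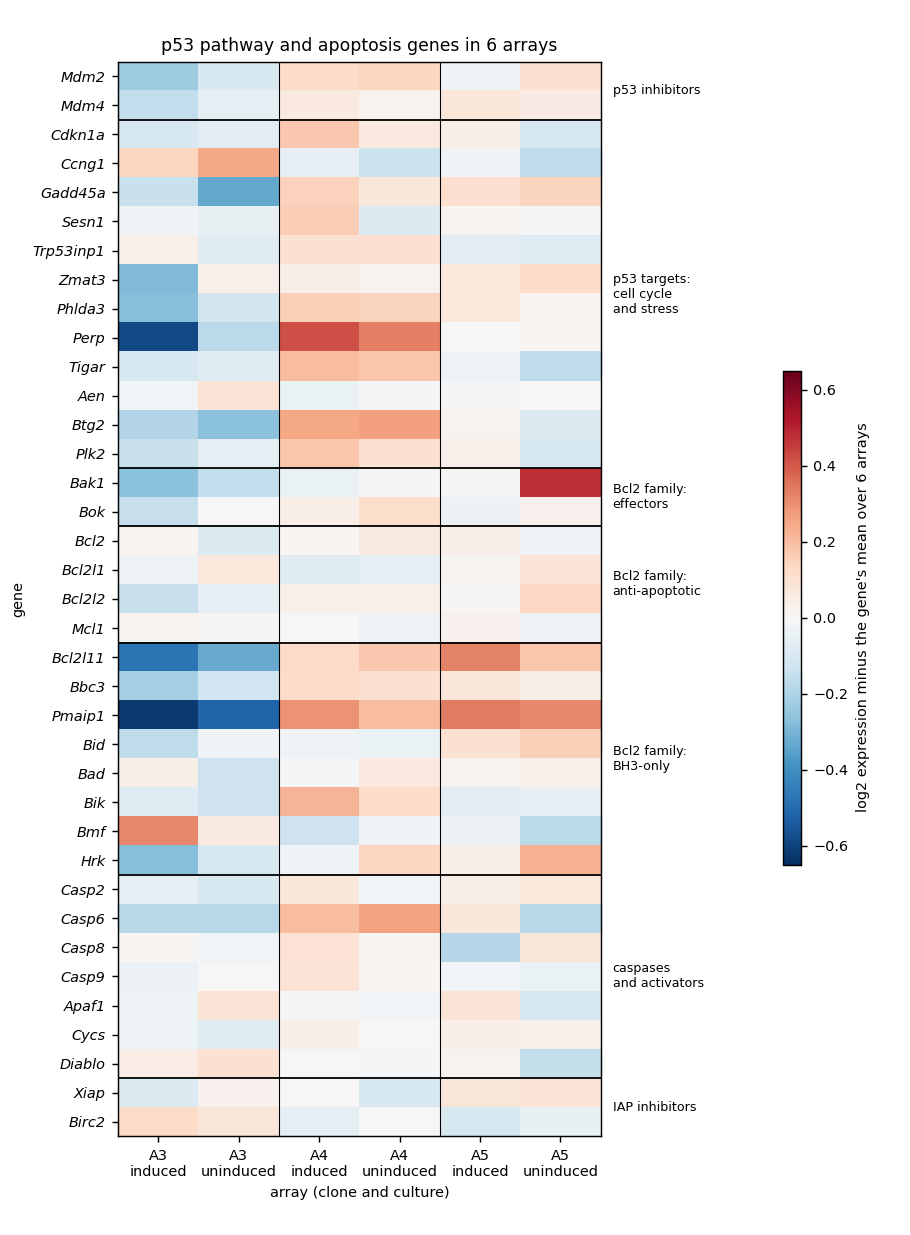
Expression of the 37 genes (rows, grouped by role) in the 6 arrays (columns, induced left of uninduced in each clone), as log2 difference from the mean of the gene over all arrays (colour). Pmaip1, Bcl2l11 and Perp carry the deepest A3 values, and 15 genes have both A3 arrays below the other 4.

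The balance of the Bcl2 family was followed as the mean log2 level of the 10 measured pro-apoptotic genes (2 effectors, 8 BH3-only) minus that of the 4 anti-apoptotic genes. Its absolute value has no meaning, since probe sets differ in affinity, but its change between arrays has. The balance was -0.97, -0.75 and -0.77 in induced A3, A4 and A5, against -0.94, -0.73 and -0.73 in uninduced cultures. On induction it differed by -0.03 in clones A3 and A5 and by -0.02 in clone A4, with the same sign in every clone. With medians in place of means it differed by 0.13 (A3), -0.04 (A4) and 0.09 (A5), so that neither its sign nor its evenness held. Between clones, A3 minus the mean of A4 and A5 was -0.21, with the anti-apoptotic mean nearly level (8.43 to 8.50) and the pro-apoptotic mean at 7.46 and 7.50 in A3 against 7.70 to 7.77 in A4 and A5. Without Pmaip1 and Bcl2l11 the difference was -0.09, and with medians in place of means it was 0.05 (2 of the 10 pro-apoptotic genes thus carried most of the difference between clones).

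**Figure D4:**
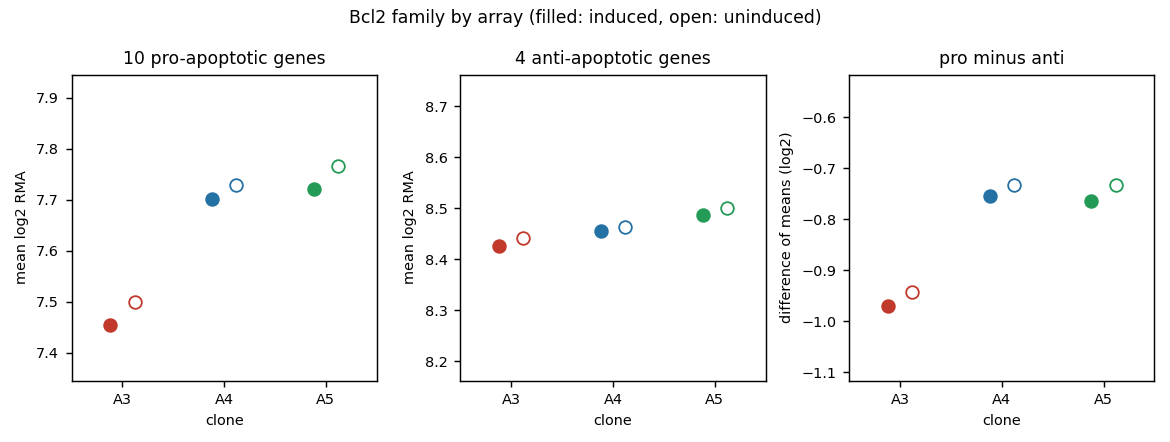
Mean log2 RMA of 10 pro-apoptotic genes (left), of 4 anti-apoptotic genes (middle) and their difference (right) in each array, with filled points for induced and open points for uninduced cultures of each clone (x axis). The difference is -0.97 and -0.94 in A3 and between -0.77 and -0.73 in the other 4 arrays.

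Other measures were set side by side between clones too, and some of them, though not all, moved with clone A3. In the paper's real-time PCR, the transgene transcript relative to Actb was higher in A3 than in A4 and A5. This held both in tetracycline and at the time point of the induced arrays. Poly-A spikes, bacterial RNAs added before labelling, averaged 5.96 and 5.72 in induced and uninduced A3, against 5.34 to 5.68 in the other 4 arrays, while the 3′ minus 5′ signal of Actb, a sign of RNA integrity, was 0.31 and 0.35 in A3 against 0.27 to 0.36. The 6 trophoblast markers averaged 5.29 and 5.40 in A3 (summed linear signal 465 and 480.1) against 5.60 to 5.83 (730.2 to 916), with 3 of the 6 under 5 on average. Of these, Tfap2c (8.32 in A3, 9.42 in A4 and 9.10 in A5, F-test adjusted p = 0.00233 in limma) and Eomes (6.01, 6.88 and 6.64, adjusted p = 0.0107) passed. Tfap2c was the 1 trophoblast marker with a mean of at least 8, so it weighs most in the summed signal. The 8 endoderm markers averaged 4.52 and 4.57 in induced and uninduced A3 against 4.64 to 4.80 in the other 4 arrays, with both A3 arrays lowest for 3 of 8 and highest for 0, and a median of A3 minus the other clones of -0.17. Of these Dab2 passed (4.99 in A3, 4.90 in A4 and 5.40 in A5, adjusted p = 0.0390), with A5 highest and A3 between the other clones. The 10 ES cell markers averaged 11.89 in both A3 arrays against 11.95 to 11.99, with both A3 arrays lowest for 5 of 10 and highest for 1. The 7 measured neural and mesoderm markers averaged 5.99 and 6.04 in A3 against 6.07 to 6.17 (summed linear signal 591 and 635 in A3 against 642 to 669.5), with both A3 arrays lowest for 2. Among the ES cell, neural and mesoderm, and fibroblast markers 0 genes passed, and of the fibroblast markers 1 of 10 had both A3 arrays lowest. Over all genes both A3 arrays were lowest for 16.6% and highest for 14%. The part of these measures in the results of Pmaip1, Bcl2l11 and Perp was not tested. In RNA from whole cultures, fewer cells of a type and less RNA per cell cannot be told apart.

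Of 36 further p53 pathway genes, 34 were measured, and 0 passed on induction and 2 between clones (5.88%, against 3.09% of all genes and 4.23% of those with a mean of at least 5). Both were higher in A3, in contrast to the 3 genes above. Gadd45g, a growth arrest gene related to Gadd45a, had 7.70 and 7.60 in induced and uninduced A3, against 6.52 and 6.35 in A4 and 6.60 and 6.17 in A5 (F-test adjusted p = 0.00202 in limma). Sesn3, a sestrin driven by FoxO factors, had 8.12 and 7.80 in A3, against 7.23 and 7.37 in A4 and 7.43 and 7.12 in A5 (0.0407). Without the induced or the uninduced A3 array 1 gene of the list passed, without both 0, and without clone A5 4. The largest differences on induction among the rest were those of Sesn2, a sestrin of the amino acid stress response, at -0.19 ± 0.11, and Ppm1d, a phosphatase that damps p53 signalling, at 0.18 ± 0.08. Ppm1d was 1 of 3 of the 34 genes with the induced arrays all above the uninduced ones, against 3.16% of all genes. For 2 of the 34 they were all below, against 4.07%. Both A3 arrays lay below the other 4 for 7 of the 34 genes (20.6%, against 16.6% of all genes) and above them for 4 (11.8%, against 14%), shares near those of all genes.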

How the data were processed

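The authors hybridised RNA from each culture to an Affymetrix Mouse Genome 430 2.0 array and deposited log2 RMA values made with the affy package (versions not given in the sources used here). Array values keep no depth, so the number of arrays, 3 per group and 2 per clone, limits the precision. From 45101 probe sets 64 controls were left out, and 45037 were tested with limma 3.58.1 in R 4.3.3 (lmFit, eBayes, two-sided, Benjamini-Hochberg, threshold 0.05). Induction was fitted without the clone (the study's methods name a t-test of induced against uninduced), and clones by an F-test with an induction term. A gene's probe set was the one with the highest mean among those with 1 symbol (34945 probe sets, while 932 had several and 9160 none). All 37 measured genes matched the RefSeq table by Entrez number. Scripts were tested on simulated data.

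Same-clone arrays deviated together (correlations of 0.524, 0.376 and 0.210 for clones A3, A4 and A5), and the labels give each pair the same clone, so the clone was the replicate block of a paired alternative. Genes and lists were chosen with earlier results of these data known. Values in every array are given for Mdm2 and Cdkn1a, for genes past the clone test and for the 5 largest induction differences, and Btg2 was added after its values were seen. From each list of other genes at most 4 are named, those past the clone test and then those with the largest induction difference. Trp53 and Bax are not analysed here. Alternatives were an intensity trend, a mean of at least 5, the mean of a gene's probe sets, no induction term, the methods' t-test, medians in the balance, and arrays or clones left out.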

Additional observations from a re-analysis of the deposited data

How the results depend on the processing

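On induction the count of genes past the threshold was 0 of 37 under all 14 alternatives, among them the clone as a replicate block (0) and the methods' t-test (0). The block changed no call on induction. Leaving out arrays or clones turned the sign for Mdm2 (-0.17 to 0.002, above 0 without the induced A3 array, at 0.00162) and for Perp (-0.35 to 0.16), which was at 0.16 without the induced A3 array, 0.04 without clone A3 and 0.03 without the uninduced A4 array. Between clones 3 of the 37 genes passed, against 10 with an intensity trend, 5 with a mean of at least 5, 5 with the mean of a gene's probe sets, and 0 to 4 with arrays or clones left out. Pmaip1 was among them in every setting that kept an A3 array. For A3 minus A4 the 4 genes became 11 with the trend, 10 with a mean of at least 5 and 1 to 4 with arrays left out, and for A3 minus A5 the 2 became 5, 5, 4 with the mean of probe sets and 1 to 2. Of the other p53 pathway genes 2 passed, against 4 with the trend and 0 to 4 with arrays left out, and of the other apoptosis genes 1 passed, against 0 to 1. Over all probe sets 980 passed, against 2641 with the trend, 1885 with a mean of at least 5 and 26 to 1427 with arrays left out. Leaving out 1 array leaves its clone with 1 array, which is then assumed to vary like the others. The Bcl2 family balance of A3 minus the other clones was -0.22 to -0.20 with arrays left out and 0.0476 with medians. Its difference on induction, -0.03, was -0.10 to 0.04 with arrays left out and 0.06 with medians. The cause of these shifts was not tested.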

Other observations

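Of 33 further apoptosis genes, such as death receptors, DNA-cutting enzymes and IAP proteins, 27 were measured. On induction 0 of them passed the threshold in limma (0 at an unadjusted p under 0.05), with 12 above and 15 below 0 and a median difference of -0.01. Tnfrsf1a, the main receptor for tumour necrosis factor, had the lowest value at -0.14 ± 0.09 (SE, n = 3 each), from 7.10, 7.40 and 7.23 in induced A3, A4 and A5 against 7.44, 7.33 and 7.38 in uninduced cultures. Birc6, a very large IAP protein, differed by -0.13 ± 0.11, and Dffa, the inhibitor of the nuclease that cuts DNA in apoptosis, by 0.12 ± 0.09.

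Between clones 1 of the 27 passed the F-test (3.70%, near the 3.09% of all genes that passed). Endog, a mitochondrial nuclease, had 8.003 and 8.002 in induced and uninduced A3, against 7.69 and 7.69 in A4 and 7.45 and 7.50 in A5 (adjusted p = 0.0383 in limma). Its 3 clones did not overlap, A3 was higher than A5 by 0.53 ± 0.08 (adjusted p = 0.0217), and the difference of 0.31 ± 0.08 from A4 did not pass (0.0968). The call was lost in 8 of the settings with arrays or clones left out. Both A3 arrays lay below the other 4 for 1 of the 27 genes (3.70%, against 16.6% of all genes) and above them for 6 (22.2%, against 14%). The difference from the 37 genes of the main list was not tested.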
